A study of Mus musculus with 2 samples.

Results

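Lipid-handling cells were sought among 1969 cells of mouse small-intestinal crypts that held fewer than 20 UMIs (unique transcript counts) of Chga, the gene of the hormone-granule protein chromogranin A. A cell was a member when its summed Apoa1, Apoa4 and Rbp2 UMIs reached 5 and made up at least 0.05% of its total. The rule found 185 members, 9.40% of the 1969 cells (95% Clopper-Pearson interval 8.14 to 10.8%), and left 1784 other cells. Members held 1106 to 96880 UMIs (median 24661) and the other cells a median of 19396. Their median mitochondrial shares of UMIs were 7.82% and 7.24%. The summed share of the rule genes ran from 0.0503% over a median of 0.185% to 6.24% of a member's UMIs. That highest share was found in a shallow member of 1554 UMIs. The 5 members nearest the threshold lay at 0.0503 to 0.0536% and the 5 nearest other cells at 0.0478 to 0.0499%. A further 25 shallow cells reached the share with fewer than 5 UMIs of these genes.

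The cells came from the ChgaCreER-tdTomato::Rosa26LSL-eYFP genotype, in which cells that use the Chga promoter carry tdTomato and a tamoxifen-dependent Cre recombinase, and recombined cells and their descendants carry eYFP. Tamoxifen was given at 1 mg a day for 5 days, to every cell described here alike, and there was no untreated group. The eYFP+ sort and a bulk epithelial sort were marked with hashtag antibodies, pooled and read as 1 gene expression library and 1 hashtag library, and the authors kept 2335 cells. The labels speak of a single mouse and do not say which hashtag marks which sort. Of the members, 152 held at least 3 Xist UMIs and none of 4 Y-linked genes, and 18 held Y-linked UMIs with at most 2 of Xist. All 18 carried tags 1 and 2, and so did 43 of the 152. Both patterns thus occurred within 1 tag pair, although the labels speak of a single mouse. The number of animals pooled was not tested. Sort and tag pair cannot be told apart in the differences between tag pairs, and the part of the animal in them was not tested. With 1 library, no replicate and members picked by their own transcripts, all values below are descriptions without a test. Intervals cover counting error only.

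The label of mature enterocyte-like cells held for most members and not for all. In 27 members, from 2.30 to 28.7% of all UMIs came from a list of 10 enteroendocrine markers, and the next member lay at 0.814%. Among the endocrine genes compared, the one with most UMIs was Gip in 20 of these 27, Cck in 4, the granin gene Chgb in 2 and Gcg in 1. Another 4 members held at least 1% of their UMIs in the Paneth or the goblet list. This split was chosen after the values were seen. The 154 members that remained are called enterocyte-like here. Of the 3 label markers the rule did not use, Fabp1, Sis and Gsta1, all were found in 124 of the 154 enterocyte-like members and in 3 of the 27 hormone-rich members.

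**Figure D1:**
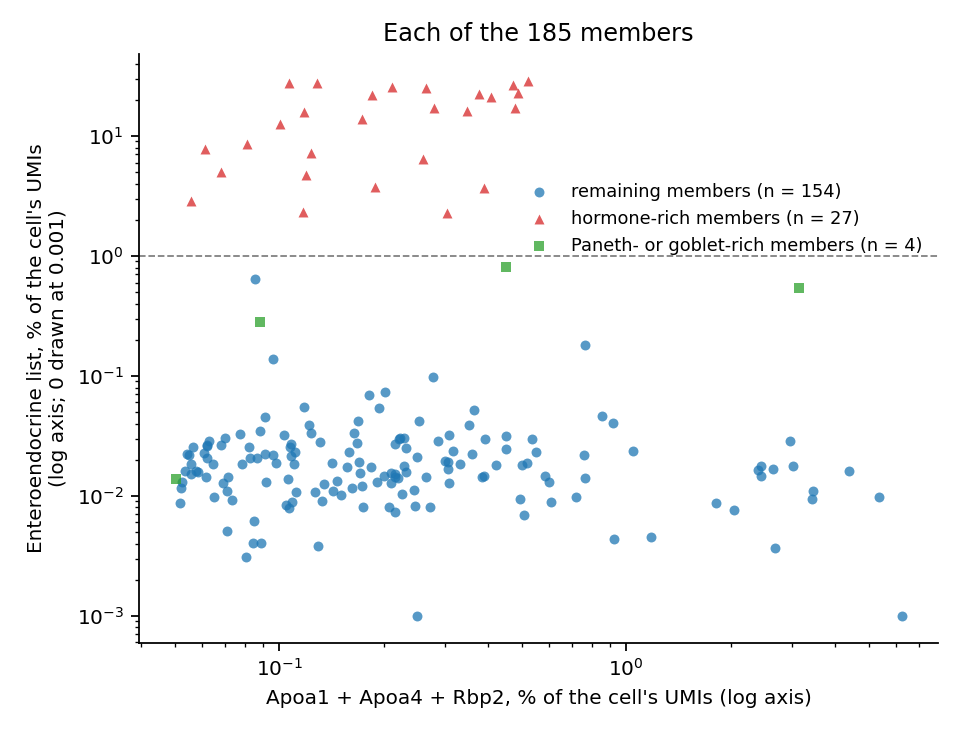
Each point is a member, placed by the share of its UMIs in Apoa1, Apoa4 and Rbp2 (x axis, %, log scale) and in 10 enteroendocrine markers (y axis, %, log scale, 0 drawn at 0.001). The 27 hormone-rich members (triangles) lie above the dashed line at 1% with a lowest value of 2.30%, the 154 enterocyte-like or remaining members (circles) lie below it, and 4 squares mark the Paneth- or goblet-rich members.

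Enterocytes are the absorptive cells of the intestine. They take up fatty acids and monoglycerides at the brush border, rebuild triglyceride in the endoplasmic reticulum, load it onto apolipoprotein B with the transfer protein Mttp, and export it as chylomicrons. Apoa1 and Apoa4 encode apolipoproteins of these particles, and Rbp2 encodes the cellular retinol-binding protein that carries dietary vitamin A within the enterocyte. Cells leave the crypt as they mature, so that in the intestine genes of the villus base and the villus tip mark successive stages.

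The 250 bases before the RefSeq start of 4 genes are shown because each leads a different side of the result: Rbp2 carried the rule in nearly every member, Fabp1 and Alpi mark the enterocyte-like members, and Gip leads the hormone-rich ones. The build is GRCm38.p6, each sequence runs 5′ to 3′ on the gene's own strand, and capitals mark matches on either strand to 3 short motifs. The first is TATAAA, which reads as TTTATA on the other strand. The second is AGATAAG, a motif of GATA factors, and the third is CAAAGTCCA, a motif of HNF4 factors.
Rbp2, chr9:98490287-98490536, plus strand: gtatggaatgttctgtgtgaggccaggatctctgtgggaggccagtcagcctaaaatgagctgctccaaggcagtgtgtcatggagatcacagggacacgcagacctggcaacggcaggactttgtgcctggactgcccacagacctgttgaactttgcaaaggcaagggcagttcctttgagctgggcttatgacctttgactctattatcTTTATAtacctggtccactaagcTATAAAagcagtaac
Fabp1, chr6:71199629-71199878, plus strand: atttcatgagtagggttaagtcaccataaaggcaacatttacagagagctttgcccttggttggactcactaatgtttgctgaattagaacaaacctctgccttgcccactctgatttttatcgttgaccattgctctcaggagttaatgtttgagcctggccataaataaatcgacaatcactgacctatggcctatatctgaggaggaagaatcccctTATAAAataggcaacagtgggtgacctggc
Alpi, chr1:87101607-87101856, minus strand: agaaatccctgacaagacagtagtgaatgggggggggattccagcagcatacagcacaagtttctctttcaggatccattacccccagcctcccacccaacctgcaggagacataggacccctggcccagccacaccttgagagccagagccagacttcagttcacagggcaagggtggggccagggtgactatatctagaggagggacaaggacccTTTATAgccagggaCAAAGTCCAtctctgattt
Gip, chr11:96024295-96024544, plus strand: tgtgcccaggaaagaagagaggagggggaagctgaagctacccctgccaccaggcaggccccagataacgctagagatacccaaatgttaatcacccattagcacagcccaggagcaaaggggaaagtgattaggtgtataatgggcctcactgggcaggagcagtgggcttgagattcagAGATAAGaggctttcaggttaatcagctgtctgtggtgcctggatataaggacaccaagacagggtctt

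Fabp1 holds TATAAA with its first base at -30 and Alpi holds TTTATA at -33, followed by CAAAGTCCA at -19. Rbp2 holds TTTATA at -38 and TATAAA at -15, and Gip holds AGATAAG at -69. None of these matches overlaps another. Of 25 genes named for the highest ratios of members over other cells, 20 had such a window: 9 held the TATA motif, Gip and Papss2 held the GATA motif, and Alpi alone held the HNF4 motif. These 20 genes had 24 windows, of which 37.5% held the TATA motif. Among all 32851 windows of this length, 12.4% held the TATA motif, 2.74% the GATA motif and 0.384% the HNF4 motif. Counted by gene, the TATA motif was found for 45% of the 20 and 14.3% of all 27025 genes. Of 15 genes named for the lowest ratios, 9 had a window and 2 of these held the TATA motif.

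The rule genes themselves were uneven. Rbp2, at 3623 UMIs per 1000000 (CPM) in the summed enterocyte-like members, was found in 153 of the 154, with 0 to 33913 CPM per cell and a median of 1739. Apoa1 ranged from 0 over a median of 43.6 to 27027 CPM and was found in 95 cells. Apoa4 was at a median of 0 and reached 14157 CPM, with 76 cells above 0. The member with the highest summed share held only 1554 UMIs, so its CPM values rest on few counts. So Rbp2 was the broad signal, whereas both apolipoproteins were concentrated in fewer cells. All 3 were found in 62 of the 154, Rbp2 alone in 46, Rbp2 with Apoa1 in 32, Rbp2 with Apoa4 in 13 and the apolipoproteins without Rbp2 in 1. The rule fixed these levels.

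To set depths alike, each cell was thinned to 2000 UMIs, which left out 1 enterocyte-like member and 110 other cells. Fabp1, the liver-type fatty acid-binding protein, then had a UMI in 86.3% of the enterocyte-like members and 8.84% of the other cells, against 100% and 37.8% before thinning. In 121 other cells that carried B-cell, T-cell or myeloid markers and should lack Fabp1 it was found in 6.61% (2.90 to 12.6%), an interval that includes the share in the other cells. The other cells were mixed, with 43 that held all of Fabp1, Sis and Gsta1. The share in immune-marked cells differed by gene. Defa24, a defensin of Paneth cells, was found in every member unthinned and in 45.8% of the thinned enterocyte-like members, below the 82.6% of the immune-marked cells. Median depth was 25752 UMIs in the enterocyte-like members and 2812 in the 148 immune-marked cells before thinning.

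Markers of other epithelial types were found in most members and in most other cells alike. At least 3 UMIs of the Paneth list occurred in 184 of 185 members, in all 154 enterocyte-like ones and in 1749 of 1784 other cells. The 7 Paneth markers summed to 416 CPM in the enterocyte-like members against 23182 in the other cells. The goblet list reached 3 UMIs in 124 members and 1267 other cells, and the enteroendocrine list in 158 and 1359. Markers of cells outside the epithelium were few. No UMI of 5 stromal or 4 endothelial markers was found. Of 8 T-cell markers, Cd3e, Cd3g, Cd3d, Cd8a, Gzmb and Trac were at 0. At least 3 UMIs of the B-cell list occurred in 3 members and of the tuft list in 1. At least 3 UMIs of 4 M-cell markers occurred in 10 members, with Gp2 and Tnfaip2 at 0. Scrublet gave 3 of the 185 members, 1 of them enterocyte-like, a place among the 138 highest doublet scores of all cells.

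Across genes, members were set against the other 1784 cells by summed UMIs. A gene is called higher or lower here when it had at least 50 UMIs over both groups, a log2 ratio (10 CPM added to each side) of at least 1 in size, and Poisson intervals apart. Of 11820 genes measured, 510 were higher in members (4.31%) and 539 lower (4.56%). For the 154 enterocyte-like members alone, 11757 genes were measured, with 529 higher (4.5%) and 703 lower (5.98%). The median log2 ratio of all genes was -0.10 and -0.15. The rule chose cells within this very contrast, so the list counts below describe the members and support nothing further.

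Outside the rule genes, the 25 highest ratios included genes of absorption and of defence, and 3 genes, Gip, Rbp4 and Fabp5, that were not higher once the hormone-, Paneth- and goblet-rich members were left out. Fabp1 was at 3281 CPM in members and 52.9 in other cells, and at 3676 in the enterocyte-like members (log2 ratio 5.87). The glutathione transferase Gsta1 was at 584 against 6.28 CPM (5.19), and sucrase-isomaltase, Sis, at 796 against 24.0 (4.57). Reg1, a secreted protein of the Reg family, was at 2285 against 45.4 (5.37). Others of the 25 highest included Papss2 (4.30), which makes the sulfate donor PAPS, the protease inhibitor gene Spink1 (4.17), the cytokine gene Il18 (3.75) and the mitochondrial arginase gene Arg2 (3.17). Each of these ratios is for the enterocyte-like members. Per cell, Fabp1 ran from 73.8 over 1545 to 33854 CPM in the enterocyte-like members and from 0 over 0 to 14290 in the other cells, so the groups overlapped although no enterocyte-like member was at 0.

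The 15 lowest ratios included Paneth-cell genes, the stem-cell marker Olfm4 and the immunoglobulin gene Igkc. Igkc was at 3.05 CPM in members and 137 in other cells, and level between them (log2 ratio 0.0067) without the immune-marked cells. Defa24 was at 234 CPM in the enterocyte-like members and 12857 in other cells, and its paralogue Defa30 at 102 against 6615; reads of near-identical defensins may be split between copies. Olfm4, a marker of crypt stem cells, was at 140 against 4929 CPM (-5.04). In single cells Olfm4 had a median of 80.2 CPM in enterocyte-like members and 3827 in other cells, with highest values of 7826 and 42785.

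Chylomicron assembly genes were higher as a set. All 8 measured of 10 were higher in members and in the enterocyte-like members, with a median log2 ratio of 1.82 in the latter. Mttp, the lipid transfer protein, was at 424 against 52.8 CPM (2.79). Apoc3, an inhibitor of triglyceride clearance, was at 117 against 6.40 CPM (2.95). Apob, the structural apolipoprotein, was at 249 against 68.6 (1.72), and Sar1b, the GTPase of the coat that carries chylomicrons, at 229 against 94.3 CPM. Per cell, Mttp ran from 0 over 346 to 1930.5 CPM and was found in 153 of 154 cells, whereas Apoc3 was found in 87.

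Of 13 lipid uptake and fatty acid-binding genes, 9 were higher in the enterocyte-like members and none lower. Fabp2, the intestinal fatty acid-binding protein, was at 2256 against 358 CPM (2.62). The cholesterol importer Npc1l1 was at 64.4 against 7.68 (2.07), and the partners of the sterol exporter, Abcg5 and Abcg8, were higher with log2 ratios of 1.81 and 1.56. The fatty acid translocase Cd36 was at 11.5 against 0.477 CPM. The scavenger receptor gene Scarb1, at 0.460 against 2.34 CPM, and Acsl3 (-0.95) were not called. Of 15 triglyceride synthesis and droplet genes, 9 were higher. Mogat2, which begins the monoglyceride route, was at 154 against 9.04 CPM (3.11), and Dgat1, which completes triglyceride, at 379 against 77.9 (2.15). The droplet-coat gene Plin2, at 104 against 55.0 CPM, was not called.

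Retinoid genes split. Of 8 measured, 4 were higher, 1 of them the rule gene Rbp2. Aldh1a1, which makes retinoic acid, was at 173 against 4.29 CPM (3.68), and the retinol dehydrogenase gene Rdh7 at 104 against 11.7. Lrat, which esterifies retinol, was level at 20.5 against 20.4 CPM, and the retinoid-sensing factor Isx was at 77.3 against 46.0, short of the call.

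Brush border enzymes and transporters were broadly higher. Of 17 enzymes measured, 11 were higher and none lower (median log2 ratio 2.11). Alkaline phosphatase, Alpi, was at 206 against 3.87 CPM (3.96), aminopeptidase N, Anpep, at 386 against 37.8 (3.05), and aminopeptidase A, Enpep, at 135 against 6.15 (3.17). Maltase-glucoamylase, Mgam, at 211 against 102 CPM (0.98), and the dipeptidyl peptidase Dpp4 (0.34) were not called. Microvillus genes were higher for 8 of 13, by less: villin, Vil1, was at 314 against 121 CPM (1.31). Of 9 sugar genes, 6 were higher, led by the fructose kinase Khk (2.43), the glucose exporter Slc2a2 (2.35) and the sodium-glucose transporter Slc5a1 at 260.5 against 50.7 CPM (2.16). Of 12 amino acid and peptide transporters, 9 were higher, with Slc7a9 at 121 against 10.2 CPM (2.69).

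Position along the intestine could be read only in part. Of 10 proximal genes measured, 7 were higher, but these include Rbp2 and Apoa4. Gata4, the factor of the jejunum and duodenum, was at 60.3 against 40.8 CPM, so it was not called. The ileal bile acid genes Fabp6 and Slc10a2 were at 1.84 CPM and 0 UMIs in the enterocyte-like members, whereas the basolateral bile acid exporters Slc51a and Slc51b were higher, at 162 and 82.8 CPM.

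Detoxification genes were higher in most of their list. Of 24 glutathione and xenobiotic genes, 21 were higher and none lower (median 1.97). Gstm3 was at 566 against 24.6 CPM (4.06), the carboxylesterase Ces1f at 238 against 15.2 (3.30), and the glutathione peroxidase Gpx2 was level at 1180 against 1027 (0.20). Respiration genes differed by less. Of 18 nuclear genes of oxidative phosphorylation 4 were higher (median 0.71), and of 16 for fatty acid oxidation and ketogenesis 6 were higher and 1 lower (median 0.78). The mitochondrial carnitine carrier Slc25a20 was among the higher ones (1.24).

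Among 25 transcription factors measured, 6 were higher and none lower. Creb3l3, a membrane-bound activator of apolipoprotein genes, was at 178 against 4.32 CPM (3.71), and Maf at 118 against 10.3 (2.66). Nr1i3 (1.83), Hnf4g (1.62), Ppara (1.12) and Esrra (1.11) were the others. Hnf4a was at 119 against 170.1 CPM (-0.48) and Cdx2 at 172 against 156 (0.13), and neither was called. The 2 HNF4 paralogues thus stood on different sides of 0.

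**Figure D2:**
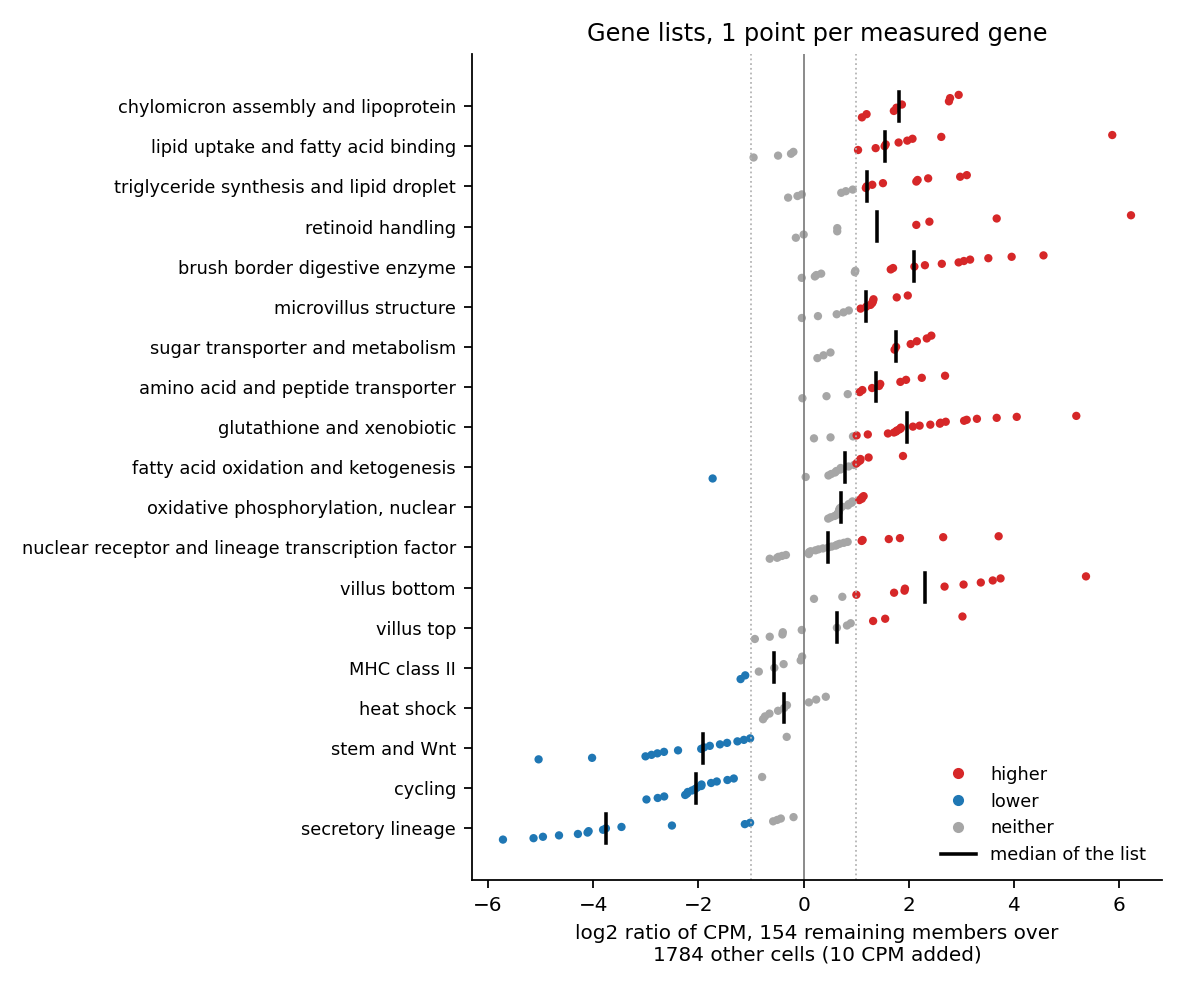
Each point is a measured gene, placed by its log2 ratio of CPM in the 154 enterocyte-like members (titled remaining members) over the 1784 other cells, with 10 CPM added (x axis), within its gene list (y axis). Red points are genes called higher, blue lower and grey neither, and black bars are list medians. Lipid, brush border, detoxification and villus-bottom lists lie right of 0, and the stem, cycling and secretory lists lie left of it.

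The villus stage was read from lists of genes that mark the villus base and tip. Of 12 base genes, 10 were higher in the enterocyte-like members (median 2.31). The antibacterial lectin Reg3b was at 9189 against 749 CPM (3.60) and Reg3g at 5270 against 630 (3.04), and the gasdermin gene Gsdmc4 at 189 against 21.0 (2.68). Of 11 tip genes measured, 3 were higher: the keratin Krt20, Tmem252 and the cell cycle inhibitor Cdkn1a. The tip genes Ada, Slc28a2 and Enpp3 were at 5.52, 0.921 and 1.61 CPM, and none was called. On CPM without mitochondrial UMIs they were low in the other cells too, at 11.3, 4.69 and 2.03. Villus-base genes were thus high, and 8 of the 11 villus-tip genes measured were not called. The 3 of 11 called higher stand beside 4.5% of all genes measured. The word mature in the label is thus borne out by part of the tip list only.

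Proliferation genes were low. Of 16 cycling genes 15 were lower, with Mki67, the proliferation marker, at 38.2 against 320 CPM (-2.77). Of 16 stem and Wnt genes 15 were lower, among them the stem cell receptor Lgr5 at 2.53 against 90.7 CPM (-3.01). Of 13 genes around cell cycle exit, Cdkn2b, an inhibitor of the cyclin D kinases, was higher at 151 against 9.57 CPM (3.04), as was Cdkn1a (1.32), and Myc, Ccnd1 and Ccnd2 were lower. Of 17 secretory genes 13 were lower. Among 7 MHC class II genes H2-Aa and H2-Eb1 were lower, with log2 ratios of -1.11 and -1.20; the other cells here include the 148 immune-marked ones, whose part in this was not tested. None of 9 heat shock genes measured and 1 of 11 immediate early genes, Zfp36, were called.

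The nearest cells outside the rule were 424 other cells with at least 0.05% and 5 UMIs of Fabp1, Fabp2, Sis, Alpi and Gsta1. Against these, 348 of 10068 genes measured were higher in the enterocyte-like members (3.46%) and 549 lower (5.45%). All 185 members gave 343 higher (3.36%) and 409 lower (4.01%) of 10211. These 5 genes chose the comparison cells, so the level of Fabp1 there was set by that choice. It was at 127 CPM, against 3676 in the enterocyte-like members, whose rule did not use it. Genes outside both rules differed too: Reg1 was at 84.0 CPM in the comparison cells (4.61), Papss2 at 14.9 (3.70) and Creb3l3 at 6.96 (3.47). Of 8 chylomicron genes 7 were higher (median 1.75), of 16 brush border enzymes 11, of 24 detoxification genes 19, and of 16 cycling genes 15 were lower. The enzyme list includes Sis and Alpi, and the detoxification list Gsta1, which helped to choose the comparison cells. Klf4, a factor of late enterocytes and goblet cells, was lower at 36.8 against 120 CPM (-1.47). The comparison cells were a mixture, in which the mucin Muc2 was at 598 CPM and Cck at 1761, and the lowest ratios were those of goblet and hormone genes.

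Within the enterocyte-like members, cells were ordered by the rule share and divided into a lowest range of 52 cells and a middle and a highest of 51 each. Of 5815 genes measured, 254 were higher in the highest range than in the lowest (4.37%) and 193 lower (3.32%). The counts over all 185 members were 245 (3.9%) and 190 (3.02%) of 6288. Fabp1 was at 852, 1663 and 8739 CPM from lowest to highest range, Sis at 216, 587 and 1641, and Gsta1 at 91.8, 346 and 1359. These genes increased over both steps. All 13 brush border enzymes measured were higher in the highest range, as were 8 of 11 lipid uptake genes, 15 of 23 detoxification genes and 5 of 8 chylomicron genes. None of the 18 oxidative phosphorylation genes and none of 14 fatty acid oxidation genes were called.

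Some genes were near 0 below the highest range. Slc2a2, the basolateral glucose exporter, was at 1.27, 2.22 and 133 CPM, found in 2, 1 and 30 cells of the 3 ranges. The membrane peptidase Ggt1 was at 3.16, 2.97 and 166 CPM, found in 32 of the 51 cells of the highest range. Lactase, Lct, had no UMI in the lowest range, 1.48 CPM in the middle and 70.6 in the highest, where 18 cells held it and 5 of them held 69.0% of its UMIs. Cyp3a11, a drug-metabolising cytochrome, followed the same course to 166.5 CPM in 17 cells, with 61.9% in 5. Most of these transcripts thus sat in part of the highest range, and the medians per cell there were 35.8 CPM for Slc2a2 and 0 for Lct and Cyp3a11. The hormone uroguanylin, Guca2b, was present in each range, at 26.6, 48.9 and 556 CPM in 15, 21 and 38 cells.

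The villus-base genes parted company along the ranges. Reg3b was at 3449, 6637 and 18015 CPM, but with wide spread: 0 over 135 to 21114 in single cells of the lowest range and 44.1 over 6629 to 109885 in the highest. Gsdmc4 was instead at 211, 254 and 102 CPM and Gsdmc2 at 72.2, 70.5 and 17.6, the latter called lower (-1.57), whereas Gsdmd was higher at 23.4, 46.7 and 139 (2.16). The tip gene Krt20 was at 82.3, 194 and 399 CPM, and Ada at 8.23, 4.45 and 3.53.

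Cycling genes decreased along the same order. Mki67 was at 74.7, 26.7 and 8.47 CPM and Ccnd2, cyclin D2, at 316, 224 and 68.4, and 7 of 9 cycling genes measured were lower in the highest range. Heat shock genes were lower for 4 of 9: Hspa1a, Hsph1, Hsp90ab1 and the mitochondrial chaperonin Hspd1, at 908, 728 and 395 CPM. Of 7 secretory genes measured, Sox4, Tff3 and Fcgbp were higher in the highest range. Their level rests on few cells, since 84.3% of the Tff3 and 85.1% of the Fcgbp UMIs there lay in 5 cells, and all Neurog3 UMIs lay in 1.

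**Figure D3:**
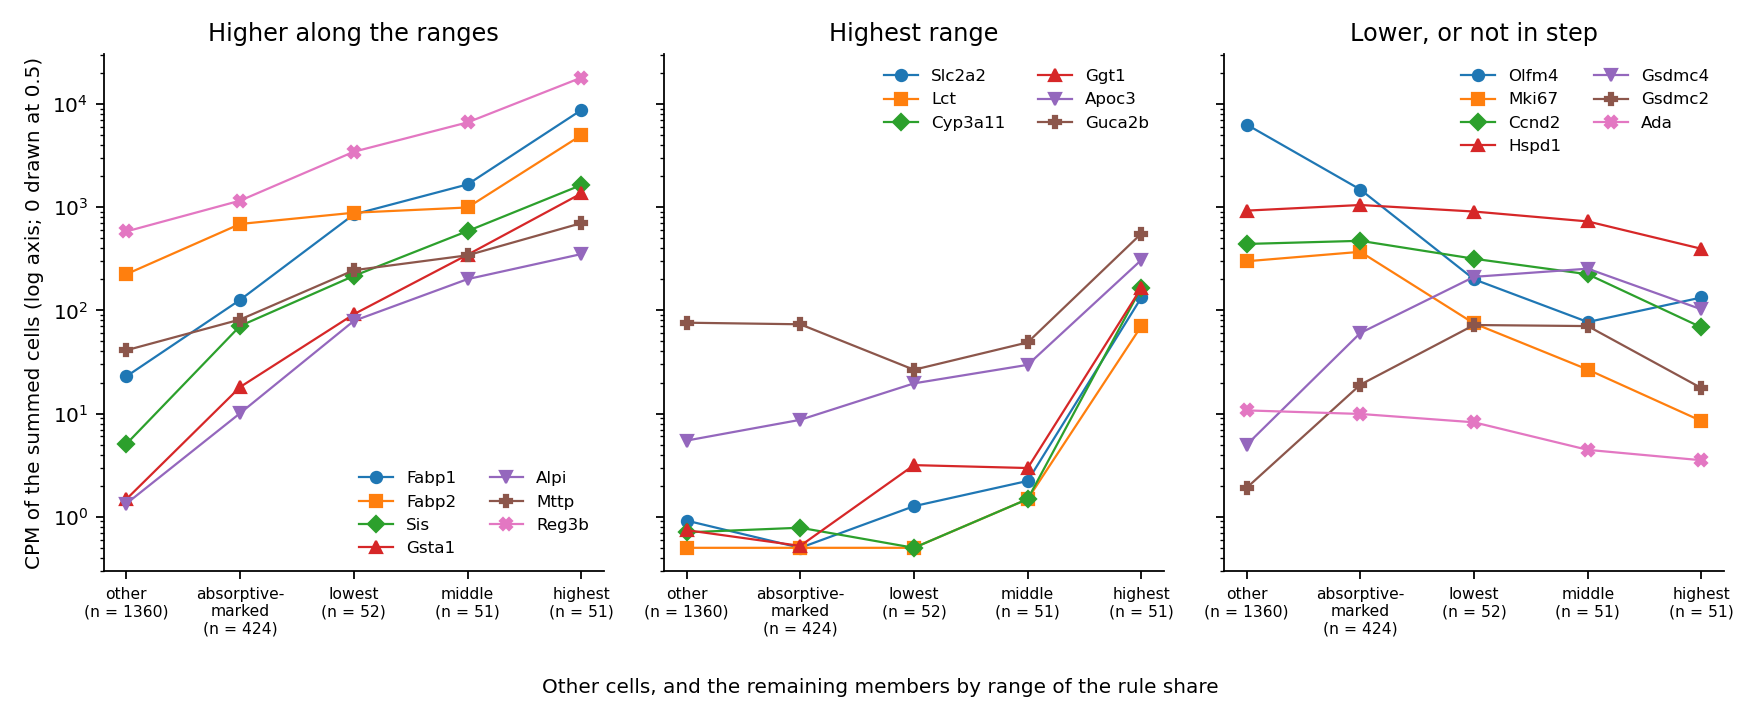
Lines join the CPM of summed cells (y axis, log scale, 0 drawn at 0.5) in the other cells without absorptive markers, the 424 absorptive-marked other cells, and the 3 ranges of the rule share among the 154 enterocyte-like members (x axis), for 20 genes. Fabp1, Sis and Gsta1 climb over each range, Slc2a2, Lct, Cyp3a11 and Ggt1 stay under 5 CPM until the highest range, and Mki67, Ccnd2 and Hspd1 decline.

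The 27 hormone-rich members met the rule through Rbp2. It was at 1910 CPM against 3623 in the enterocyte-like members, with medians per cell of 1862 and 1739 and ranges of 366 to 5204 and 0 to 33913, so the groups overlapped fully. Apoa1 was at 15.6 against 819 CPM and found in 3 of the 27 cells, Apoa4 at 9.72 against 243 and found in 4. Fabp1 was at 231 against 3676 CPM and Sis at 405 against 796, while Alpi had a UMI in 1 cell. Of 7362 genes measured, 673 were higher in the hormone-rich members (9.14%) and 566 lower (7.69%).

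The hormone-rich members were split off by the enteroendocrine list, which holds Gip, so the contrast in Gip was fixed by that choice. Gip, the incretin, was at 75341 against 29.0 CPM, from 52.3 over 114625 to 271639 per cell. Genes outside that list differed as well. Rbp4, the plasma retinol carrier, was at 2509 against 1.38 and found in all 27. Fabp5, a fatty acid-binding protein, was at 6268 against 23.9, and the endocrine factor Isl1 at 731 against 0.460, each also found in all 27. Reg3b was at 50.6 against 9189 CPM. These cells thus shared Rbp2 with the enterocyte-like members and held less of their other leading genes. Even so, 17 of the 27 held 2 of Fabp1, Sis and Gsta1, and their Fabp1 and Sis levels were above the 52.9 and 24.0 CPM of the other cells. The cell cycle inhibitor gene Cdkn1c was higher in all members (123 against 16.0 CPM) and not in the enterocyte-like ones (10.4).

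Cells rich in Gip met the rule more often than other cells marked by the enteroendocrine list, at thresholds that were not alike. Of 28 cells with at least 100 Gip UMIs and Chga under 20, 23 met it (82.1%, 63.1 to 93.9%). Of 68 other cells with at least 1% of UMIs in the enteroendocrine list, 4 did (5.88%, 1.63 to 14.4%). Above the Chga limit, 6 of 9 cells with 100 Gip UMIs would have met the other terms. Median depth was 13308 UMIs in the 28 cells and 8798 in the 68. Hormone content was not matched between these sets, and its part and that of depth were not tested. Gip had at least 1 UMI in 45.5% of enterocyte-like members and 44.7% of other cells, and in 6.54% and 8.06% after thinning, with 26.4% in the immune-marked cells, which should lack it.

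By hashtag, a cell was given to tags 1 and 2 or to tags 3 and 4 if its counts of that pair were no less than 3-fold those of the opposite pair. Members were 66 of 684 cells of tags 1 and 2 (9.65%, 7.54 to 12.1%) and 23 of 402 of tags 3 and 4 (5.72%, 3.66 to 8.46%), with 96 members unassigned. The intervals overlap. Without cells that carried immune markers the shares were 9.76% and 7.97%. The enterocyte-like members alone were 43 cells (6.29%) and 23 cells (5.72%), and 6.31% and 7.97% without the immune-marked cells, whereas the hormone-rich members were 21 and 0 of 402, which allows up to 0.913%. At a split at equal counts, enterocyte-like members were 7.60% and 8.04%. The gap between pairs over all members was thus smaller without the hormone-rich members, and smaller without the immune-marked cells. With both left out its direction changed, to 6.31% in tags 1 and 2 against 7.97% in tags 3 and 4.

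Few genes separated the enterocyte-like members of the pairs. Of 4724 measured, 11 were higher in tags 1 and 2 (0.233%) and 5 lower (0.106%), against 139 (2.54%) and 13 (0.237%) of 5482 over all members. YFP was at 198 against 5.05 CPM, with at least 3 UMIs in 13 of 43 cells and 0 of 23. Gsdmc2 was at 122 against 20.2 CPM (2.12) and Gsdmc4 at 349 against 93.5 (1.79). Per cell, Gsdmc4 ran from 0 over 194 to 1663 CPM in tags 1 and 2 and from 0 over 37.3 to 555 in tags 3 and 4, so every value of tags 3 and 4 lay within the range of tags 1 and 2. The heat shock genes Hspa1a (1.48) and Hspa1b, at 57.6 against 13.9 CPM, were higher as well. Of the 5 lower genes, the metallothionein Mt2 was at 99.0 against 260.2 CPM (-1.31) and the MHC gene H2-Aa at 37.3 against 93.5 (-1.13); Ifitm3, Tifa and Chst4 were the others.

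The split at equal counts used all 154 cells, 74 and 80. YFP, at 124 against 2.94 CPM, Gsdmc2 (1.53), Gsdmc4 (1.23) and Hspa1a (1.55) were again called higher, and Hspa1b (0.74), Mt2 (-0.39), Ifitm3 (-0.60) and H2-Aa (-0.78) were not called. The rule genes differed little there: Rbp2 was at 3665 and 3588 CPM with overlapping intervals. At the 3-fold assignment the intervals of all rule genes were apart. Rbp2 was at 2997 against 2366 CPM, Apoa1 at 818 against 422 and Apoa4 at 199 against 111. Of those 43 and 23 cells, 21 and 8 lay in the lowest range of the rule share, whose part was not tested. Of the 154, 12 held Y-linked UMIs with at most 2 of Xist, all in tags 1 and 2, so this pattern moved with the tag pair and its part in these differences was not tested.

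**Figure D4:**
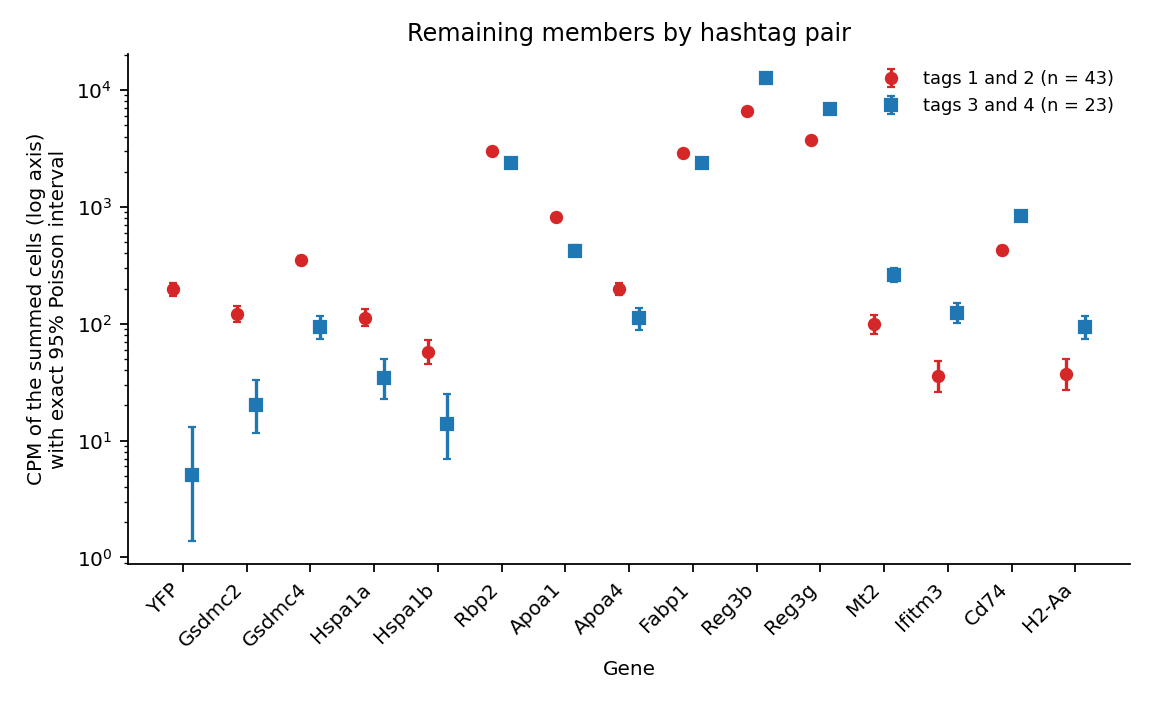
CPM of summed enterocyte-like members (y axis, log scale) with exact 95% Poisson intervals for 15 genes (x axis), in tags 1 and 2 (circles, 43 cells) and tags 3 and 4 (squares, 23 cells). YFP stands at 198 against 5.05 CPM and Gsdmc4 at 349 against 93.5, while Reg3b lies higher in tags 3 and 4.

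The authors' matrix also held 8722 barcodes with Chga under 20 that they did not keep. Of these, 555 met the same rule (6.36%, 5.86 to 6.90%), with a median of 5897 UMIs and 25.4% mitochondrial UMIs, and 379 of them had no other list at 1%. The 379 are set beside the 154 kept enterocyte-like members on CPM without mitochondrial UMIs. Apoa4 was at 1230.2 in the left-out barcodes and 266 in the kept cells, and Apoa1 at 3042 and 895. Ada was at 56.4 and 6.04, and Enpp3, a nucleotide phosphodiesterase of the villus tip, at 36.2 and 1.76. Ada was found in 7.65% of the left-out barcodes and 13.0% of the kept cells, against the order of its CPM, and Enpp3 in 8.44% and 2.60%. Lct was at 108 and 25.7, whereas Reg3b was at 7978 and 10046 and Gsdmc4 at 109 and 207. Olfm4, at 855 and 153, and Defa24, at 1700 and 256, were higher in the left-out barcodes too. Mitochondrial share and depth moved with being left out, and free RNA was not measured. The part of each in these levels was not tested.

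**Figure D5:**
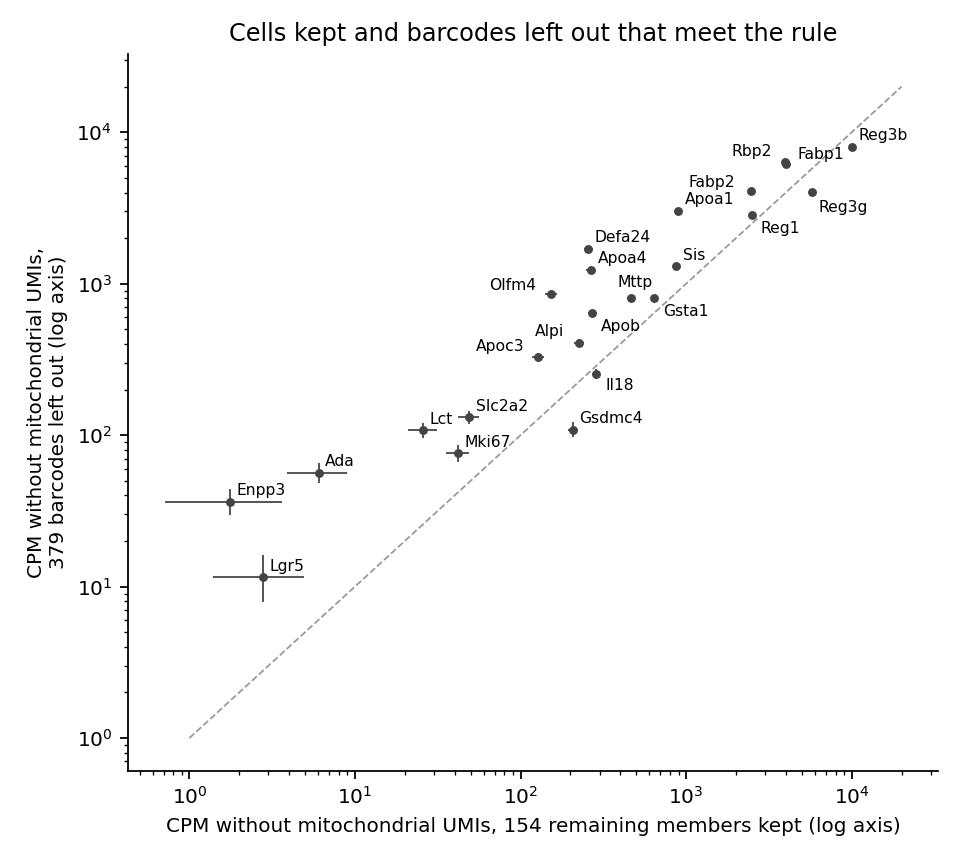
Each point is a gene, placed by its CPM without mitochondrial UMIs in the 154 kept enterocyte-like members (x axis, log scale) and in 379 left-out barcodes that met the rule (y axis, log scale), with exact 95% Poisson intervals. The dashed line marks equal levels, and Enpp3, Ada and the rule gene Apoa4 lie above it while Reg3g and Gsdmc4 lie below.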

How the data were processed

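Droplet 3′ libraries of sorted crypt cells were processed with Cell Ranger and Seurat, per the submitters' processing notes, which name the human build GRCh38, whereas the gene rows carry mouse Ensembl IDs, with YFP and tdTomato added. The matrix header gives version 3.1.0, and which filter chose the kept cells was not given in the sources used here. The authors deposited raw counts of UMIs for 31055 genes over 11248 barcodes, a count table of 2335 kept cells, in which 0 entries differed from the matrix, and raw hashtag counts. The deposited normalised table is the natural log (ln) of 1 plus scaled counts, with a largest difference of 6.2e-15 over 1553 genes checked, and was not used further. The gene expression and hashtag libraries share the same 2335 barcodes. Kept cells held 1002 to 129719 UMIs, with a median of 19078 and 51238250 in all.

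Counts were summed per group and given per 1000000 UMIs, with exact 95% Poisson intervals, and shares with Clopper-Pearson intervals (Python 3.11.15 with pandas 2.3.3, scipy 1.17.1, scanpy 1.11.5 and numpy 2.4.6; figures with matplotlib 3.10.9). Ratios are log2 with 10 CPM added. Named genes are those with the 25 highest and the 15 lowest ratios, provided they were found in at least 10% of the cells of the higher group and had intervals apart, leaving out the rule genes, Chga, mitochondrial, ribosomal protein and unnamed genes, with at most 3 of a family. Other comparisons took 10 and 10, the hashtag pairs 8 and 8. The members and gene lists were chosen with earlier results of these data known, and the split into hormone-rich, Paneth- or goblet-rich and enterocyte-like members was chosen after seeing the data. On simulated data over 11816 genes, changes of 4-fold were recovered for 100% of genes raised and 82% of genes reduced. Changes of 2.5-fold were recovered for 62% and 40%, and 0 of 11616 unchanged genes were called. These rates are not error rates for the real cells, because the Poisson intervals cover counting error only. Real cells spread more widely: Reg3b ran from 0 to 109885 CPM per cell in the 154 enterocyte-like members. Scrublet marked 2 of 2335 cells (0.0857%), so it did not work as a caller, and no cell was removed as a doublet. Some genes of these lists are counted but not reported here by name. Promoter windows came from RefSeq (GRCm38.p6).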

Additional observations from a re-analysis of the deposited data

Results flagged for a closer look

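Barcodes that the authors did not keep entered none of the comparisons between kept cells, and 555 of those with Chga under 20 met the rule. They stand out because this signal lies outside the main measurement. Of the 555, 459 had over 12.5% mitochondrial UMIs, a share that no kept cell exceeded. Among left-out barcodes with at least 1000 UMIs and at most 12.5% mitochondrial UMIs, 93 of 857 met the rule (10.9%), and their median hashtag total was 63, beside 196 for the members.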

How the results depend on the processing

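No paired analysis was possible because there is 1 gene expression library with no replicate, so no library could be left out either. Members were 11.5, 6.91 and 1.68% of cells at share thresholds of 0.025, 0.1 and 0.5%, and 7.82% without the members rich in other lists. With 1 CPM added in place of 10, 974 genes were higher and 1797 lower, and at 0.5% 1490 were lower. The share in tags 1 and 2 was 6.87% at 0.1%, 0.731% at 0.5% and 6.29% without the rich members, and that in tags 3 and 4 was 8.64% at equal counts, 1.69% at a 10-fold rule and 0.995% at 0.5%. Between pairs, 88 genes were higher and 6 lower at equal counts, 11 and 5 without the rich members, and 4 and 3 with both; the 10-fold rule left 2 members in tags 3 and 4, too few for genes. Splitting members at the median share gave 147 higher and 82 lower, and absorptive-marked cells at 0.2% gave 242 lower. Left-out barcodes were 1.91% at 0.5% and 4.35% without other lists. Without the rich members Gip turned to -1.72, Fabp5 to -0.997 and Rbp4 to -1.42, the composition of the members being what changed. Rbp4 was -0.92 and the gasdermin median -0.010 at 0.5%, where 33 members remain, and the cause was not tested. Igkc, a B-cell gene, was 0.0067 without the immune-marked cells that hold it. Of 510 higher genes, 469 were shared without the rich members and 428 without the 5 cells of each group with most UMIs of the gene. In all, 254 of 341 list values and 271 of 440 named gene values moved by less than their interval; 1 and 5 turned sign. Depth limits genes under 50 UMIs and shares in shallow cells.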

Other observations

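Some further gene groups were measured in the 154 enterocyte-like members against the other 1784 cells. Of 9 mineral and vitamin genes, 4 were higher: the iron store Fth1 (10584 against 3047 CPM), the iron exporter Slc40a1 (40.5 against 3.49), the calcium-binding S100g (170.1 against 19.2) and the folate transporter Slc46a1 (13.8 against 1.78). Of 13 junction genes, Cldn23 (log2 ratio 1.61) and the intestinal cadherin Cdh17 (1.16) were higher and Cldn2, a pore-forming claudin of crypts, lower (-1.64). Of 11 interferon-response genes measured Ifi27l2b alone was higher (1.40), and of 13 BMP and Notch genes Notch1 alone was lower (-1.40). Among all 11757 genes measured, 4.5% were higher and 5.98% lower, so 1 call in such a list says little about it. Reg4 was at 17.0 against 56.6 CPM and lower, unlike Reg1, Reg3a, Reg3b and Reg3g. tdTomato was at 16.8 against 11.2 CPM.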
